A study of Mus musculus with 6 samples.

Results

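Collagen chain genes encode the polypeptides that fold in threes into the collagens, the main structural proteins of the extracellular matrix. The genes described here were the 44 of 35275 genes in the count table whose symbol was Col, a type number, the letter a and a chain number. They were grouped by the kind of structure their proteins build. The groups held 11 fibrillar chains, 9 chains of the basement membrane and its anchoring zone (types IV, VII, XV and XVIII), and 9 FACIT chains, which are fibril-associated collagens with interrupted triple helices. A further 9 chains were taken as network-forming (types VIII and X, with the beaded filaments of type VI), 4 were transmembrane, and Col26a1 and Col28a1 lay outside the 5 classes.

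RNA was sequenced from NIH3T3 cells, an established line of mouse embryo fibroblasts, in 6 libraries. In 3 of them the labels gave a line overexpressing NgBR, the Nogo-B receptor encoded by Nus1, which had been made by stable transfection with a pIRES plasmid for HA-tagged NgBR and G418 selection. The other 3 came from wild-type NIH3T3 cells, for which the labels give no transfection or selection, and both lines grew in DMEM with penicillin, streptomycin and 10% calf serum. The labels do not say whether the libraries of a line came from separate cultures, so the p-values below weigh differences against a library-to-library spread that can be technical.

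Collagen chains are made in the endoplasmic reticulum, where prolyl and lysyl hydroxylases modify them and dedicated chaperones hold them until the triple helix has formed. In fibroblasts the bulk of the product is type I collagen, a trimer in which alpha-1 chains outnumber alpha-2 chains, with type III in the same fibrils. Type V and type XI chains are minor fibrillar collagens that start fibrils and limit their width, and chains of these types can combine in 1 trimer. FACIT collagens sit on the fibril surface, type IV chains form the sheet of basement membranes, and type VI forms beaded filaments near cells.

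The stretches of 250 bases before the annotated start are given for the called chain with the most counts, Col5a3, and for the chain of the same subfamily that differed most in the other direction, Col11a1. They are followed by the partner chain Col5a1 and by the type VI chain Col6a2. Sequences are from RefSeq on build GRCm38.p6, on the gene's own strand, and capitals mark CCAAT (or ATTGG on the other strand), the GC box GGGCGG (or CCGCCC) and TATAAA (or TTTATA), none of which overlapped another in these stretches. The stretches lie at chr9:20815068-20815317 on the minus strand for Col5a3 and at chr3:114030290-114030539 on the plus strand for Col11a1. For Col5a1 the position is chr2:27886175-27886424 on the plus strand, and for Col6a2 chr10:76623631-76623880 on the minus strand.
Col5a3: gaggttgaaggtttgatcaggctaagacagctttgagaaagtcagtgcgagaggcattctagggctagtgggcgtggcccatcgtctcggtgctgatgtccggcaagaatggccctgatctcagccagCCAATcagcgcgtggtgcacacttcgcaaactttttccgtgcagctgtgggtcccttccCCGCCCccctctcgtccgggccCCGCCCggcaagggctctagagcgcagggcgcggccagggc
Col11a1: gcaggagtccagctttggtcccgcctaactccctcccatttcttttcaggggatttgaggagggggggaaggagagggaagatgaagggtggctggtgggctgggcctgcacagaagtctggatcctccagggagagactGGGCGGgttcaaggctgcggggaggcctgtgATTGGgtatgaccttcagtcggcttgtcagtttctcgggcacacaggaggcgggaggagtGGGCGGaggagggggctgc
Col5a1: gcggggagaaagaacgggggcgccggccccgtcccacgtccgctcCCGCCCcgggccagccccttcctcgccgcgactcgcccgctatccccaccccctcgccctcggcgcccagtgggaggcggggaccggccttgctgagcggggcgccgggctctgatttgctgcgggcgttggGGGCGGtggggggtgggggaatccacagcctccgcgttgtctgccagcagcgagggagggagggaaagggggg
Col6a2: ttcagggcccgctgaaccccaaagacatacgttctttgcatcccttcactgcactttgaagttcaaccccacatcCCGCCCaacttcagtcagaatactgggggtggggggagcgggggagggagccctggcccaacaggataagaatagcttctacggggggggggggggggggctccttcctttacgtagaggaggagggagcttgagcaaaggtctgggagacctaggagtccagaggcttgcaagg
Col5a3 held CCAAT with its first base 122 bases before the start and GC boxes at 63 and 41 bases. Col11a1 held ATTGG at 79 bases and GC boxes at 110 and 19 bases. Col5a1 held GC boxes at 205 and 73 bases and Col6a2 one at 175 bases. Col6a2 has another RefSeq start, whose stretch (chr10:76623405-76623654) is not printed and held GC boxes at 67, 15 and 11 bases. None of the 4 printed stretches held TATAAA or TTTATA. A promoter entry was found for 35 of the 44 chains, of which 13 (37.1%) held a CCAAT box, 21 (60.0%) a GC box and 5 (14.3%) a TATA box on either strand. Among all 32851 promoters of the same length these shares were 33.8%, 32.7% and 12.4%. The units differ: a chain with several entries, such as Col6a2, counted if any entry held the box, while all promoters were counted entry by entry. A match of these short words is a description of the letters and no evidence of a bound factor.

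The libraries labelled NgBR held 7369961, 10358381 and 10082223 counts, against 35511769, 29515072 and 32196873 in wild-type libraries, a mean 3.50 times larger. Both libraries numbered 2 stood apart from the others of their line on the second principal component, which carried 32.5% of the variance. The library labelled NgBR 3 (-30.4) was also far from NgBR 1 (1.08) on it. In both libraries numbered 2, the deviations of genes from the mean of all 6 libraries ran upwards with exonic length. Spearman rho over 12589 genes was 0.36 in the library labelled NgBR 2 and 0.25 in wild-type library 2. In both libraries numbered 3 these deviations ran downwards (-0.47 and -0.29), as they did in wild-type library 1 (-0.22). The library labelled NgBR 1 stood at 0.08. Tested collagen chains had a median exonic length of 7242 bases, against 4384 over all tested genes. Nus1 averaged 178 ± 11.0 CPM, the count scaled to library size, in libraries labelled NgBR and 211 ± 22.8 CPM in wild-type libraries (SD, n = 3 each). It was not higher under the NgBR label (log2 fold change -0.24, edgeR adjusted p = 0.786), so the directions below are those between libraries with these labels. The labels do not say which species' NgBR the plasmid carried, and mouse Nus1 counts alone therefore do not check the label.

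Fibroblast markers summed to 13763 to 20808 CPM in libraries labelled NgBR and 12750.1 to 17633 CPM in wild-type libraries, led by Fn1. Epithelial markers summed to 0.791 to 2.66 CPM against 0.237 to 0.858 CPM in wild type, with Epcam, Krt18 and Cldn4 at 0 and Krt14 the most abundant. Endothelial markers, led by Vwf, summed to 3.15 to 4.21 CPM against 1.93 to 2.58 CPM in wild type. Leukocyte markers, led by Cd68, summed to 2.38 to 3.44 CPM against 1.42 to 4.09 CPM in wild type. Muscle markers, led by Tnnt2, which is not particular to skeletal muscle, summed to 4.35 to 16.5 CPM against 1.59 to 3.25 CPM in wild type. Myod1 and Myog were at 0. Of the fibroblast list, Fap was low, at a mean of 1.21 CPM under the NgBR label and 0.114 CPM in wild type. The sum was thus by far the highest for the labelled fibroblast identity, though not every member was abundant. Epithelial, endothelial, leukocyte and muscle sums were low beside it. Chondrocyte markers, nearly all Sox9, are given below with the cartilage collagens.

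Collagen chains took 1.56%, 2.01% and 1.48% of the counts in libraries labelled NgBR and 1.48%, 1.39% and 1.46% in wild-type libraries. Of the 44 chains, 28 passed the filter on low counts and were tested, and 2 of the 28 (7.14%) were called at an adjusted p under 0.05, 1 higher (Col14a1) and 1 lower (Col5a3) in libraries labelled NgBR. Over all 12651 tested genes 429 (3.39%) were called, 2.04% higher and 1.35% lower. The shares of chains here include Col14a1, which passed the filter only through the libraries labelled NgBR, where it was high. The median log2 fold change of the 28 chains was 0.12, with 16 positive and 12 negative, beside a median of -0.01 over all tested genes, 48.7% of which were positive. Without the library labelled NgBR 2 the median of the chains was -0.05. At an unadjusted p under 0.05, 6 chains were higher and 3 lower, 9 of 28 in all, against 11.4% of all tested genes.

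Per-library CPM did not overlap between the groups for 10 of the 28 chains (35.7%), against 18.6% of all tested genes. In 7 of them the libraries labelled NgBR lay above wild type, namely Col1a1, Col11a1, Col14a1, Col22a1, Col6a1, Col6a2 and Col8a1 (9.21% of all tested genes lay above). In Col5a3, Col11a2 and Col27a1 they lay below (9.37% of all tested genes). None of the 10 other than Col5a3 and Col14a1 passed the adjusted test. Col14a1 is counted among the 10 although it was tested only because it was high under the NgBR label.

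**Figure D1:**
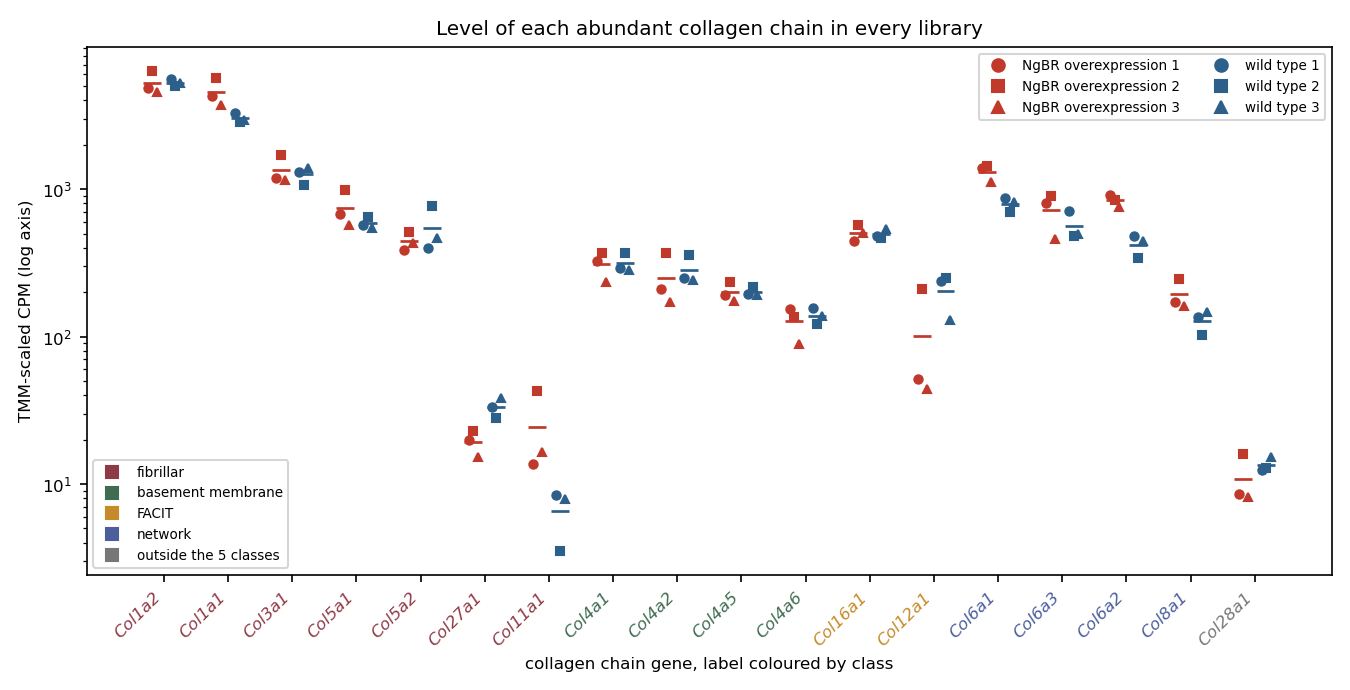
TMM-scaled CPM (log axis) of the 18 collagen chains with a mean of at least 10 CPM, in each library labelled NgBR (red, left) and each wild-type library (blue, right); short lines are group means and label colours give the class. The fibrillar chains span the range, Col1a2 at 4526 to 6331 CPM and Col11a1 at 3.52 to 43.0 CPM, and Col6a1, Col6a2 and Col8a1 are the network chains whose groups do not overlap.

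**Figure D2:**
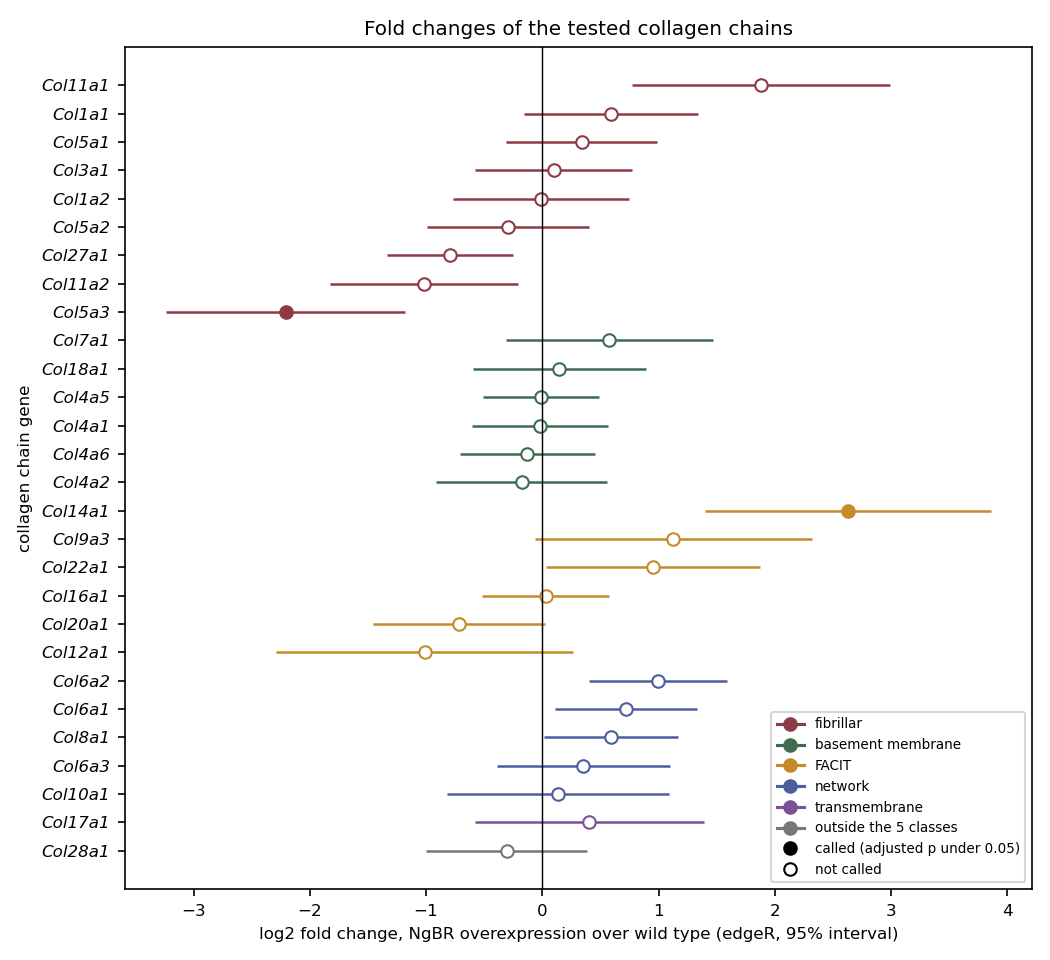
Log2 fold change of libraries labelled NgBR over wild type for the 28 tested chains, ordered within class, with 95% intervals from edgeR. Filled points, Col5a3 at -2.21 and Col14a1 at 2.63, are the 2 chains called.

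Among fibrillar chains the type I genes were the most abundant in both lines. Per kilobase of the longest coding transcript, Col1a2 stood at 981 ± 179 CPM per kb in libraries labelled NgBR and 989 ± 50.2 in wild-type libraries, and Col1a1 at 769 ± 168 and 511 ± 38.6 (SD, n = 3 each). In wild type the 2 chains did not overlap (Col1a2 943 to 1043, Col1a1 480.0 to 554 CPM per kb), while in libraries labelled NgBR they did (846 to 1184 and 630.3 to 955). The next levels per kb were those of Col6a1 and Col3a1, which overlapped each other within each line.

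Col1a1 had 4274, 5663 and 3738 CPM in libraries labelled NgBR, against 3286, 2846 and 2954 CPM in wild-type libraries. Every library labelled NgBR was above every wild-type library, yet the difference did not pass the test (log2 fold change 0.59, SE 0.33, 95% interval -0.16 to 1.34, edgeR adjusted p = 0.591). Col1a2 had 4885, 6331 and 4526 CPM against 5576, 5043 and 5249.6 CPM in wild type, and the groups overlapped (-0.01, SE 0.34, -0.77 to 0.75, edgeR adjusted p = 0.997). Col3a1, the single chain of type III collagen, had 1182, 1710.0 and 1152 CPM against 1312, 1069.6 and 1400.0 CPM in wild type, again with overlap (0.10, SE 0.30, edgeR adjusted p = 0.965).

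Type V chains differed from one another. Col5a3 (ENSMUSG00000004098, chr9:20770050-20815067, minus strand, mm10) had 3.37, 2.77 and 1.15 CPM in libraries labelled NgBR, against 8.44, 16.6 and 8.06 CPM in wild-type libraries, from 64 and 1055 counts in all. All 3 libraries labelled NgBR were below all 3 wild-type ones, and Col5a3 fell by 2.21 on the log2 scale (SE 0.46, 95% interval -3.24 to -1.18, edgeR adjusted p = 0.032). In bulk RNA, fewer cells using a gene and less RNA per cell cannot be told apart. The call was lost without each library labelled NgBR in turn (adjusted p 0.0892, 0.0867 and 0.0952) and without wild-type library 2 (0.0832), with log2 fold changes of -2.51 to -1.79. It was lost in limma-voom (adjusted p = 0.0555) and held when all libraries were thinned to the shallowest total (edgeR adjusted p = 0.0372).

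Col5a1, the chain present in nearly all type V trimers, had 680.3, 987 and 569 CPM in libraries labelled NgBR, against 573, 644 and 549 CPM in wild-type libraries. The groups overlapped (log2 fold change 0.34, SE 0.29, -0.31 to 0.99, edgeR adjusted p = 0.775). Col5a2, its usual partner, had 385, 516 and 429 CPM against 401, 767 and 463 CPM in wild type, where library 2 was the highest (-0.30, SE 0.31, edgeR adjusted p = 0.831). Col5a2 lies on chromosome 1 with its start 191.744 kb from that of Col3a1, on the opposite strand.

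Col11a1, the alpha-1 chain of cartilage collagen type XI, had 13.6, 43.0 and 16.4 CPM in libraries labelled NgBR, against 8.41, 3.52 and 7.91 CPM in wild-type libraries. The groups did not overlap, and the libraries numbered 2 were the extremes of both, the highest under the NgBR label and the lowest in wild type. The log2 fold change of 1.88 (SE 0.49, 0.77 to 2.99) missed the threshold in edgeR (adjusted p = 0.0898) and passed it in DESeq2 (adjusted p = 0.00416), which called 4.74% of the genes it gave an adjusted p. It was 0.88 without both libraries numbered 2 (edgeR adjusted p = 0.0664). Col11a2 had the other direction, 1.12, 1.78 and 2.10 CPM against 3.26, 2.98 and 4.03 CPM in wild type, without overlap and without a call (-1.01, SE 0.36, edgeR adjusted p = 0.26).

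Other cartilage genes were near absent. Col2a1, the fibrillar collagen of cartilage, had at most 6 counts in a library. Chondrocyte markers summed to 149 to 174 CPM in libraries labelled NgBR and 97.9 to 133 CPM in wild-type libraries. Nearly all of that was Sox9, a transcription factor active well beyond cartilage, while Cnmd was at 0 in all libraries and Acan averaged 0 and 0.00954 CPM. The part of these markers in the Col11a1 and Col11a2 values was not tested.

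Col27a1, a fibrillar chain of developing cartilage, had 19.8, 22.8 and 15.2 CPM in libraries labelled NgBR, against 33.5, 28.3 and 38.2 CPM in wild-type libraries. All libraries labelled NgBR were below all wild-type ones, but the log2 fold change of -0.79 (SE 0.24, -1.34 to -0.25) was not called (edgeR adjusted p = 0.163). Without both libraries numbered 2 it was -1.05 and called (edgeR adjusted p = 0.036). Over the 9 tested fibrillar chains the median log2 fold change was -0.01, with 4 positive and 5 negative, and 5 chains had groups without overlap (18.6% of all tested genes did).

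Network chains all had positive fold changes, 5 of 5 tested, with a median of 0.59. None was called by edgeR, and 3 of the 5 had an unadjusted p under 0.05 (11.4% of all tested genes did). Col6a2, the alpha-2 chain of type VI, had 916, 848 and 754 CPM in libraries labelled NgBR, against 479, 339 and 443 CPM in wild-type libraries. The lowest library labelled NgBR was well above the highest wild-type one, at a log2 fold change of 1.0 (SE 0.26, 0.40 to 1.59). Its edgeR adjusted p was 0.092, and the call depended on the fit: it passed in DESeq2 (0.001) and with offsets for exonic length and GC content (0.0433), a fit that called 4.06% of all tested genes.

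Col6a1, the alpha-1 chain, had 1385, 1426 and 1127 CPM in libraries labelled NgBR, against 876, 701 and 814 CPM in wild-type libraries. The groups did not overlap, and the log2 fold change of 0.72 (SE 0.27, 0.11 to 1.33) was not called by edgeR (adjusted p = 0.307) and was by DESeq2 (adjusted p = 0.0327). Col6a3, the longest of the common type VI chains, had 805, 904 and 456 CPM against 714, 482 and 500.0 CPM in wild type. Its groups overlapped because the library labelled NgBR 3 lay below every wild-type library (0.35, SE 0.33, edgeR adjusted p = 0.808).

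Col8a1, a chain of the short network collagen VIII of vessel walls and of the cornea, had 172, 246 and 162 CPM in libraries labelled NgBR, against 135, 102 and 147 CPM in wild-type libraries. The groups did not overlap, at a log2 fold change of 0.59 (SE 0.26, 0.02 to 1.17, edgeR adjusted p = 0.418). Col10a1, the collagen of hypertrophic cartilage, averaged 1.27 ± 0.248 CPM under the NgBR label and 1.15 ± 0.332 CPM in wild type, with overlap.

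Of 6 tested basement membrane chains, 0 were called by edgeR or DESeq2, beside 3.39% and 4.74% of all genes. None had an unadjusted p under 0.05 (11.4% of all tested genes did). All 6 overlapped between the groups, while 18.6% of all tested genes did not. So few chains cannot set the class apart from those shares. The median log2 fold change was -0.02. The summed share of the class among collagen-chain counts, given below, did not overlap between the lines. Col4a1 had 325, 369 and 236 CPM in libraries labelled NgBR, against 293, 367 and 283 CPM in wild-type libraries (-0.02, SE 0.26, -0.61 to 0.57, edgeR adjusted p = 0.992). Col4a2, with which it forms the commonest type IV trimer, had 209, 369 and 173 CPM against 252, 355 and 241 CPM in wild type (-0.18, SE 0.33, -0.92 to 0.56, edgeR adjusted p = 0.928). In both lines library 2 was the highest for both genes. The pair starts 21 bases apart on opposite strands of chromosome 8, and without a stated strand setting reads over the shared start cannot be assigned to 1 of the 2.

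Col4a5 and Col4a6 are a second head-to-head pair. Col4a5, whose human counterpart is the main gene of X-linked Alport syndrome, had 191, 233 and 174 CPM in libraries labelled NgBR, against 194, 217 and 190.3 CPM in wild-type libraries (log2 fold change -0.01, SE 0.22, -0.51 to 0.49, edgeR adjusted p = 0.996). Col4a6, which starts 1309 bases away on the other strand of chromosome X, had 154, 136 and 89.4 CPM against 157, 121 and 137 CPM in wild type (-0.13, SE 0.26, -0.71 to 0.45, edgeR adjusted p = 0.935). Col18a1, the precursor of endostatin, averaged 8.02 ± 1.80 CPM under the NgBR label and 7.24 ± 2.64 CPM in wild type, and Col7a1, the chain of anchoring fibrils, 2.89 ± 0.652 and 1.95 ± 0.696 CPM (SD, n = 3 each).

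FACIT chains went both ways, 4 positive and 2 negative of 6 tested, with a median log2 fold change of 0.49. Col14a1 (ENSMUSG00000022371, chr15:55307750-55520803, plus strand, mm10) had 0.701, 0.791 and 1.05 CPM in libraries labelled NgBR, against 0.143, 0.169 and 0.0902 CPM in wild-type libraries. Those values rest on 5, 8 and 11 counts against 5, 5 and 3 counts in the deeper wild-type libraries, so the levels are low in both. Col14a1 was called higher (log2 fold change 2.63, SE 0.54, 1.40 to 3.86, edgeR adjusted p = 0.032). It passed the filter only through the libraries labelled NgBR, and so had to differ to be tested at all. The ratio of the pooled CPM was 6.51 (95% interval 3.19 to 13.9, counting error only). The call was lost without each library labelled NgBR in turn (adjusted p 0.0956, 0.0794 and 0.147), and without any wild-type library the gene was not tested. It was also lost without a filter on low counts (0.0659), where Col11a1 was called beside Col5a3 and 3.27% of all genes were called, and was not tested with at least 1 CPM in 3 libraries or after thinning.

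Col12a1, the FACIT chain of tendon and fascia, had 51.2, 209.8 and 44.0 CPM in libraries labelled NgBR, against 238, 248 and 130.3 CPM in wild-type libraries. The library labelled NgBR 2 was about as high as the wild-type ones and the other two were far below, which gave the largest coefficient of variation of any abundant chain, 92.2%. The log2 fold change over all libraries was -1.01 (SE 0.57, -2.29 to 0.27, edgeR adjusted p = 0.59). Without the library labelled NgBR 2 it was -2.12 and called (edgeR adjusted p = 0.0188), and without both libraries numbered 2 it was -1.96 and called (0.0176). With offsets for exonic length and GC content it was -1.17 and not called (0.228).

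Col16a1, a FACIT chain of fibrils and of fibrillin microfibrils, was steady at 444, 569.9 and 503 CPM in libraries labelled NgBR, against 484, 467 and 537 CPM in wild-type libraries (log2 fold change 0.03, SE 0.24, -0.52 to 0.57, edgeR adjusted p = 0.99). The remaining tested FACIT chains were low. Col22a1, a chain of tissue junctions, averaged 1.31 ± 0.182 CPM under the NgBR label and 0.679 ± 0.120 CPM in wild type without overlap (0.95, edgeR adjusted p = 0.412). Col9a3 averaged 1.36 ± 0.760 and 0.615 ± 0.0237 CPM, and Col20a1 3.89 ± 0.786 and 6.41 ± 1.82 CPM, both with overlap and neither called (SD, n = 3 each).

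Transmembrane chains were nearly silent. Col17a1, a hemidesmosome protein of skin, was the single one tested of 4, at 3.01 ± 0.757 CPM in libraries labelled NgBR and 2.25 ± 0.992 CPM in wild-type libraries (log2 fold change 0.40, SE 0.44, edgeR adjusted p = 0.844). Outside the classes, Col28a1 had 8.55, 16.0 and 8.11 CPM in libraries labelled NgBR, against 12.4, 12.9 and 15.2 CPM in wild-type libraries, overlapping through the library labelled NgBR 2 (-0.31, SE 0.31, edgeR adjusted p = 0.822).

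The 16 chains that were not tested had at most 15 counts in a library, reached by Col4a4 in wild type. Col9a1, Col13a1 and Col26a1 had 0 counts in all 6 libraries, and 6 of the 16 had at most 3 counts in each. Col24a1 had 0, 0 and 0 counts in libraries labelled NgBR, against 3, 7 and 6 in wild-type libraries. Over the 3 libraries labelled NgBR together, a count of 0 allows up to 0.108 CPM (3 counts, counting error only), below the wild-type mean of 0.168 CPM, and the gene was under the filter and not tested. The others were Col2a1, Col4a3, Col15a1, Col9a2, Col19a1, Col6a4, Col6a5, Col6a6, Col8a2, Col23a1 and Col25a1.

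Count ratios between chains that share a trimer or a fibril need no scaling between libraries. The ratio of Col1a1 to Col1a2 counts was 0.875, 0.895 and 0.826 in libraries labelled NgBR, against 0.589, 0.564 and 0.563 in wild-type libraries. Within each line the libraries lay close together and the lines were far apart, at 1.51-fold (log2 difference 0.60). The exact two-sided permutation test gave p = 0.1, the smallest that 3 against 3 allows, and 0.175 after Benjamini-Hochberg adjustment over the 7 ratios computed. The log2 difference was 0.56 to 0.63 in all alternatives run, which left out single libraries or both libraries numbered 2 or thinned the counts.

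Col1a1 made up 26.8 ± 0.609% of collagen-chain counts in libraries labelled NgBR and 21.1 ± 0.660% in wild-type libraries, and Col1a2 31.0 ± 0.826% and 36.9 ± 0.408%. The sum of the 2 was 57.7 ± 0.804% and 57.9 ± 0.964% (SD, n = 3 each), with overlap. The share of type I differed by less than the spread between libraries, and the split between its 2 chains by more.

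The ratio of Col3a1 to Col1a1 was 0.277, 0.302 and 0.308 in libraries labelled NgBR, against 0.399, 0.376 and 0.474 in wild-type libraries, without overlap (log2 difference -0.49, exact permutation p = 0.1). For Col5a3 to Col5a1 it was 0.00495, 0.0028 and 0.00202 against 0.0147, 0.0258 and 0.0147 in wild type, without overlap (-2.55, exact permutation p = 0.1). For Col6a1 to Col6a2 it was 1.51, 1.68 and 1.50 against 1.83, 2.07 and 1.84 in wild type, also without overlap (-0.29, exact permutation p = 0.1), so Col6a2 was the further up of the pair. Each of these 3 had an adjusted p of 0.175.

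The other 3 ratios overlapped between the lines. Col4a1 to Col4a2 averaged 1.31 ± 0.283 under the NgBR label and 1.12 ± 0.0781 in wild type (exact permutation p = 0.4). Col5a1 to Col5a2 averaged 1.67 ± 0.306 and 1.15 ± 0.296 (exact permutation p = 0.2), and Col6a3 to Col6a1 0.540 ± 0.120 and 0.706 ± 0.102 (exact permutation p = 0.2; SD, n = 3 each). Ratios that share a chain, such as those with Col1a1 or Col5a1, are not independent of each other. A ratio is also not independent of the CPM results of its own chains.

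**Figure D3:**
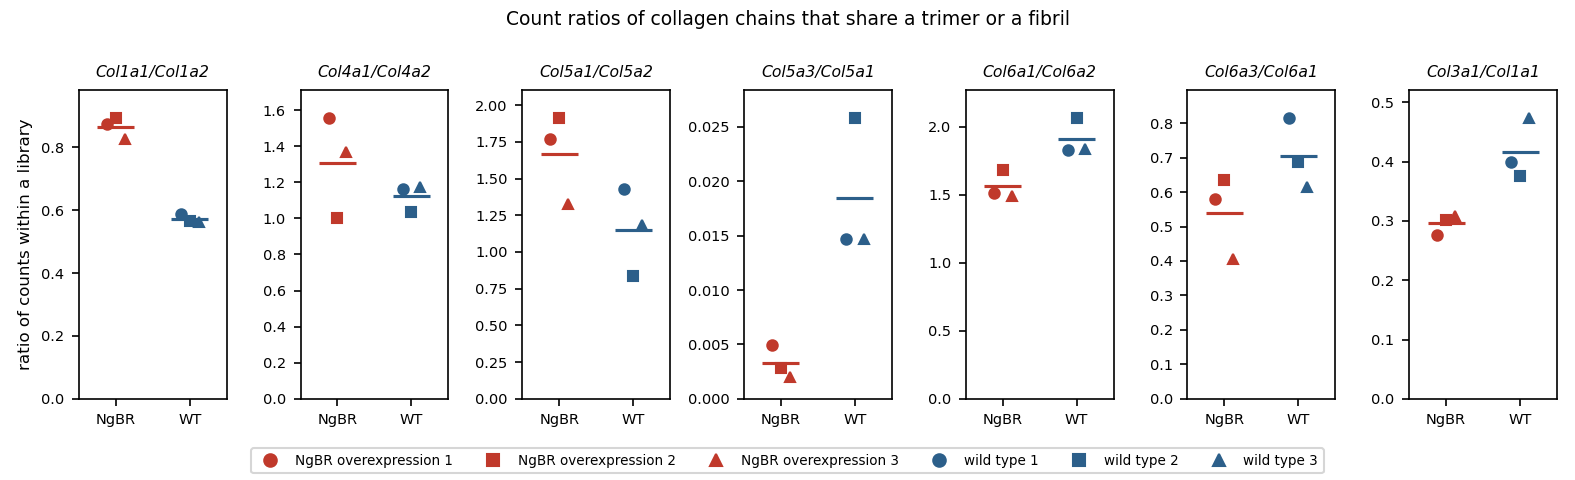
Count ratio within each library for 7 pairs of chains, libraries labelled NgBR left in red and wild type right in blue, with group means as lines; every axis starts at 0. The ratio of Col1a1 to Col1a2 lies at 0.826 to 0.895 under the NgBR label and 0.563 to 0.589 in wild type. Of the 7 ratios, 4 do not overlap, each holding a chain whose own CPM did not overlap. The share over other gene pairs was not computed.

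Summed by class, network chains took 20.3%, 16.6% and 17.6% of collagen-chain counts in libraries labelled NgBR, against 14.7%, 11.7% and 13.5% in wild-type libraries. Fibrillar chains took 72.9 ± 1.68% under the NgBR label and 75.0 ± 0.592% in wild type, basement membrane chains 5.25 ± 0.389% and 6.61 ± 0.985%, and FACIT chains 3.62 ± 0.432% and 4.95 ± 0.244% (SD, n = 3 each). None of the 4 classes overlapped between the lines, network above and the other 3 below. The shares of a library add up to the whole, so they are not separate results, and no test was run on them. In CPM the network chains summed to 3068 ± 497 and 1912 ± 291 without overlap, nearly all of it type VI, whereas the fibrillar sums, 12389.7 ± 2550.0 and 10766 ± 398, overlapped.

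**Figure D4:**
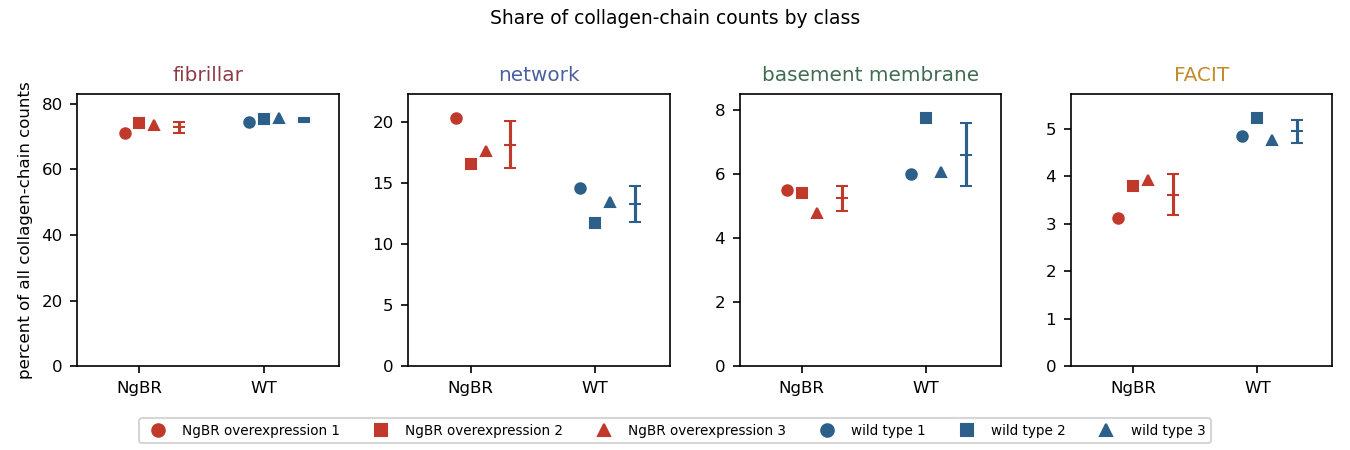
Percent of all collagen-chain counts held by each of 4 classes, per library (libraries labelled NgBR left in red, wild type right in blue), with mean and SD beside the points and axes from 0. The network share lies at 16.6% to 20.3% under the NgBR label and 11.7% to 14.7% in wild type.

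Libraries of 1 line differed in collagen level for many chains at once. Of the 18 chains with a mean of at least 10 CPM, 16 were highest among libraries labelled NgBR in library 2 and 15 were lowest in library 3. In wild type, 11 of the 18 were lowest in library 2 and 6 highest there. For the 28 tested chains, the median log2 deviation from the mean of all 6 libraries was 0.07, 0.32 and -0.15 in libraries labelled NgBR. It was -0.03, -0.10 and -0.08 in wild-type libraries. The median coefficient of variation of the 18 chains was 22.6% under the NgBR label and 14.1% in wild type, where Col1a2 was the steadiest at 5.08%. Without both libraries numbered 2 the count of called chains was again 2, but these were Col12a1 and Col27a1, both lower, with 4.53% of all genes called. Col5a3 (edgeR adjusted p = 0.053) and Col14a1 (0.0602) then missed the threshold. The part of exonic length in these shifts was not tested chain by chain beyond the fit with offsets, which called Col5a3, Col14a1 and Col6a2.

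**Figure D5:**
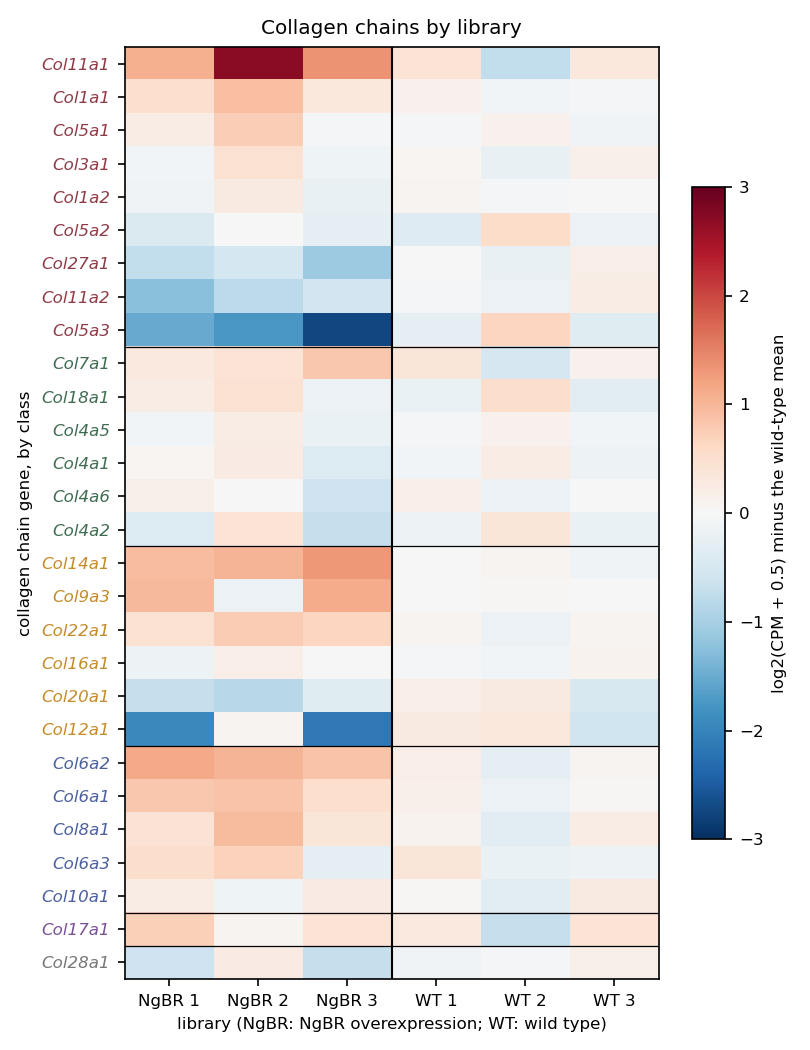
Heat map of log2(CPM + 0.5) minus the wild-type mean for the 28 tested chains (rows, label colour by class) in each library (columns, libraries labelled NgBR left). Col6a1, Col6a2 and Col11a1 are red in all 3 libraries labelled NgBR and Col5a3 blue in all 3, while Col12a1 is blue in libraries 1 and 3 and near 0 in library 2.

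Genes that modify, assemble, bind or break down collagen were taken as 7 lists of 107 genes, 92 of them tested. Of the 92, 6 were higher and 3 lower in libraries labelled NgBR (9.78% called, against 3.39% of all tested genes). The median log2 fold change of the 92 was -0.02. The lists were chosen with earlier results of these data known, so the share called is a description only. Lum, Itga11 and Fap passed the filter on low counts only through the group where they were high. Among hydroxylases and galactosyltransferases 3 of 13 tested were higher and none lower, and the list's median was 0.44. These were Plod2, a lysyl hydroxylase of the telopeptides (150.5 ± 51.2 CPM against 32.3 ± 5.10 CPM in wild type), P4ha2, a catalytic prolyl 4-hydroxylase subunit (238 ± 56.9 against 87.8 ± 8.71), and Plod1, a lysyl hydroxylase of the helix (154 ± 25.8 against 71.0 ± 5.38). Of 8 tested genes for propeptide processing and cross-linking, 1 was higher, the lysyl oxidase family member Loxl3 (155 ± 22.1 CPM against 71.0 ± 15.8 CPM in wild type, edgeR adjusted p = 0.0407), and the list's median was 0.12.

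Collagen folding and secretion genes gave no call in 16 tested by edgeR or DESeq2, and 1 had an unadjusted p under 0.05, against 11.4% of all tested genes (median log2 fold change -0.02). The 2 most abundant were close in level. Serpinh1, the collagen chaperone HSP47, had 695 ± 52.4 CPM in libraries labelled NgBR and 654 ± 126 CPM in wild-type libraries, and the disulfide isomerase Pdia3 had 623 ± 165 and 729 ± 252 CPM. Transcription factors known to act on collagen genes gave no edgeR call in 23 tested, 1 in DESeq2 and 2 at an unadjusted p under 0.05, again beside 11.4% of all tested genes (median 0.02), and the most abundant were Prrx1 (1403 ± 513 and 1440.2 ± 224 CPM) and Fosl2 (563 ± 228 and 617 ± 42.1 CPM; SD, n = 3 each).

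Collagen receptors had 1 call in 9 tested, lower, beside 1.35% of all tested genes called lower, and a median of -0.59. Itga11, which pairs with integrin beta-1 as a receptor for fibrillar collagen, had 0.421, 0.593 and 0.286 CPM in libraries labelled NgBR, against 8.93, 18.6 and 8.27 CPM in wild-type libraries. It fell by 4.76 on the log2 scale (SE 0.50, edgeR adjusted p = 0.00129), and its wild-type library 2 was the highest, as for Col5a3. Of 13 tested fibril-associated matrix proteins 2 were lower and none higher (median -0.21). Lumican (Lum), a fibril-binding proteoglycan, had 0.140, 0 and 0 CPM against 24.2, 24.9 and 20.4 CPM in wild type (edgeR adjusted p = 0.000235), and dermatopontin (Dpt), which binds decorin and fibrils, 2.61 ± 0.724 against 8.52 ± 0.592 CPM. Itga11 and Lum passed the filter through the wild-type libraries, where they were high.

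Collagen-degrading proteases and their inhibitors had 2 of 10 tested called, both higher, beside 2.04% of all tested genes called higher. The list's median was -0.21. Ctsk, the lysosomal collagenase cathepsin K, had 9.25, 4.74 and 13.1 CPM in libraries labelled NgBR, against 1.49, 2.20 and 1.44 CPM in wild-type libraries (log2 fold change 2.40, SE 0.41, edgeR adjusted p = 0.0134). Fap, a membrane protease that acts on gelatin, had 0.841, 0.988 and 1.81 CPM against 0.0858, 0.135 and 0.120 CPM in wild type (3.38, SE 0.56, edgeR adjusted p = 0.011). Fap passed the filter only through the libraries labelled NgBR, and so had to differ to be tested. The list had 1 call with a filter of at least 1 CPM in 3 libraries and 1 after thinning.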

How the data were processed

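RNA-seq libraries were 3 of the line labelled NgBR overexpression and 3 of wild-type NIH3T3. The authors deposited a table of whole-number raw counts for each gene, without normalization. HISAT2 2.0.5 and featureCounts 1.5.0-p3, with build mm10, are named in the submitters' processing notes. The strand setting and annotation release are not given in the sources here, so reads of overlapping genes can have been counted for either. Per the labels' protocols, a SMARTer mRNA-seq kit was used.

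From the counts, edgeR 4.0.16 (R 4.3.3) fitted all genes passing filterByExpr (minimum count 10) with TMM factors and a quasi-likelihood F test. The call threshold was 0.05 on p adjusted by Benjamini-Hochberg over all 12651 tested genes. CPM are TMM-scaled. The procedure was tested on simulated data. Ratios were compared by an exact permutation test (SciPy 1.17.1). Alternatives were DESeq2 1.42.0, limma-voom 3.58.1, other scaling factors, other filters, thinning, length and GC offsets, a replicate block and leaving out libraries. Positions and lengths are from GENCODE M21, which held 97.8% of the table's genes. No 2 libraries of the same line were duplicates by a chi-square comparison of counts. Pairs across the lines were not compared. Same-numbered libraries deviated with correlations of 0.0147, 0.341 and 0.434. Crossed values were -0.399 (NgBR 2 with wild-type 3) and -0.367 (NgBR 3 with wild-type 2). NgBR 1 stood at -0.0186 and 0.0174 with wild-type libraries 2 and 3. With wild-type library 1, NgBR 2 stood at -0.179 and NgBR 3 at 0.189. Libraries numbered 2 and 3 thus correlated best with their own number, and those numbered 1 did not. Deviations from the mean of a line are not free of one another, so these values cannot settle whether libraries were paired by number. The main fit did not pair the libraries, and the replicate block was an alternative. Depth was 7369961 to 35511769 counts, and intervals on counts and floors cover counting error only.

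Values in each library are given for chains called or with a mean of at least 10 CPM. Other chains are given by summary or mean. Called list members, up to 4 a list, or else the 2 most abundant, are named. Members, classes and lists were chosen with earlier results of these data known, Col11a2 and Col22a1 being named further for their separated groups. Of the cell type markers, the most abundant of each list is named.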

Additional observations from a re-analysis of the deposited data

How the results depend on the processing

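The count of called chains, 2, was 5 in DESeq2 (34 chains with an adjusted p), 5 with a replicate block, 1 in limma-voom, 1 with at least 1 CPM in 3 libraries, 1 after thinning, and 0 to 1 leaving out 1 library. With the block, 719 genes were called (429 without), the chains being Col5a3, Col14a1, Col11a1, Col12a1 and Col6a2, and the library labelled NgBR 1 did not correlate best with its own number. All genes called were 726 in DESeq2, 688 without a filter, and 225 to 374 leaving out 1 library. The 9 calls on collagen pathway lists were 14 in DESeq2, 14 without a filter, and 3 to 7 leaving out 1 library. Of 441 log2 fold changes of 28 chains under alternatives, 389 kept direction and side of the threshold, 11 lost a call, 11 gained one and 30 changed sign. Sign changes were confined to 10 chains, none of them called in any fit run. Col1a2 was 0.0025 with RLE factors, 0.0047 with at least 1 CPM and 0.015 thinned (leaving out 1 library -0.17 to 0.085). Col4a5 was 0.0031, 0.0057 and 0.025 in the same 3 and 0.019 with length and GC offsets (-0.14 to 0.078). Col4a1 was 0.0052 thinned (-0.17 to 0.14). Without both libraries numbered 2, Col3a1 was -0.22 (-0.12 to 0.20) and Col16a1 -0.11, which was -0.023 without a filter (-0.072 to 0.11). Leaving out 1 library gave -0.47 to 0.038 for Col5a2, -0.58 to 0.030 for Col4a2, -0.30 to 0.071 for Col4a6, -0.023 to 0.49 for Col18a1 and -0.059 to 0.35 for Col10a1. The causes were not tested. No ratio changed direction. The 16 untested chains averaged at most 0.199 CPM over all libraries, below the filter's cutoff of 0.502 CPM, and 3 had 0 counts throughout. Depth, lower under the NgBR label, further limits what their counts can show.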
